A study of Mus musculus with 24 samples.

Results

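Interferon-stimulated genes are the genes that cells switch on when interferon reaches them. The set described here holds 44 of them, named for their known place in the type I interferon response, with earlier results of these data known, and sorted into 7 roles: induced regulators and signalling proteins, sensors of foreign nucleic acid, oligoadenylate synthetases and nucleases, the IFIT family with other effectors of translation and nucleotide supply, GTPases, membrane and secreted effectors, and a small remainder. The arrays carry 66 probes for the set, and 42 of the 44 genes have a probe, all of which passed the filter on dim probes, among 16489 genes tested in the whole series. Dtx3l and Xaf1 have no probe. Of the 42 measured members, 34 were well above background on all 24 arrays. The other 8 were Parp12, Oas2, Oas3, Oasl2, Rsad2, Cmpk2, Mx1 and Mx2, each at background on at least 1 array.

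Type I interferons bind the receptor chains Ifnar1 and Ifnar2, whose kinases activate a transcription factor complex that holds Stat2 and Irf9. The complex binds the interferon-stimulated response element (ISRE) in the promoters of its targets, while the usual arm of interferon gamma acts through the gamma-activated site (GAS). Many of the induced proteins are antiviral, and some turn the response up, such as Irf7, or down, such as Usp18, which blocks signalling at Ifnar2. T cells that have not met antigen hold a steady low level of these transcripts.

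RNA came from sorted CD4+ T cells of female C57BL/6 mice aged 6 or 7 weeks that lacked Trim28, a chromatin corepressor, in T cells only (conditional knockout, CKO) or were age-matched wild-type (WT) animals. Naive cells (CD4+CD62+CD25-) were taken unstimulated or after 13 h on plate-coated antibodies to CD3 and CD28, which engage the T cell receptor and its costimulator, and regulatory T cells (Treg, CD4+CD62+CD25+) were sorted from the same 2 genotypes. The 6 groups (WT and CKO, each unstimulated, stimulated and Treg) have 4 replicates each, numbered 1 to 4, on 24 one-colour arrays over 6 slides. Each CKO array shares its slide with the WT array of the same state and number. The promoter that drives the Cre recombinase, whether unstimulated cells were held in culture, and whether replicates came from separate mice are not given in the sources used here, so a p-value here weighs a difference against the scatter of the arrays, which may be technical only. A sample field calls the CKO Treg stimulated and the WT Treg unstimulated, which titles and study design do not; if it were right, that comparison would mix genotype with stimulation. Stimulated replicates 1 and 4 came from mice of 7 weeks and replicates 2 and 3 from mice of 6 weeks, in both genotypes. Ages were not matched in 1 Treg pair: replicate 1 was from a 7-week CKO and a 6-week WT mouse.

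Levels are log2 of the processed signal minus log2 of the array's 75th percentile, A difference is the difference of such levels, CKO minus WT or stimulated minus unstimulated. Because probes differ in brightness, levels are compared for 1 gene between arrays, never between genes. A member is called higher or lower where limma, fitted over all 16489 genes, gave a Benjamini-Hochberg adjusted p under 0.05. Trim28 itself was lower in CKO in all 3 states, for instance at 0.97 against 3.66 in stimulated cells (difference -2.68, limma adjusted p = 8.97e-10). T cell markers were high in every group, and summed Treg markers were 31.7 to 40.1 times the 75th percentile in Treg against 0.58 to 1.63 in unstimulated naive cells.

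Promoter windows of 250 bases before to 50 bases after the RefSeq start (GRCm38.p6) were found for 33 of the 44 members. The ISRE was searched as GAAA, any 2 bases and GAAA, and the GAS as TTC, any 3 bases and GAA, on both strands. The ISRE letters stood in a window of 15 of the 33 members (45.5%), against 1079 of 27025 genes of the table (3.99%). The GAS letters stood in a window of 9 members (27.3%) against 2582 genes (9.55%). Both were found for 4 members. The 150 bases before the start are printed for 5 members that the results turn on, to set promoters that carry the letters beside one that does not. They read 5′ to 3′ on the gene's own strand, and capitals mark matches, including matches that overlap each other.
Isg15, chr4:156200819-156200968, minus strand: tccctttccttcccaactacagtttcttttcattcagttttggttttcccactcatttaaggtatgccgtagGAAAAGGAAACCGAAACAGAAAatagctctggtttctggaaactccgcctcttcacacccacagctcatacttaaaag
Oas1a, chr5:120907526-120907675, minus strand: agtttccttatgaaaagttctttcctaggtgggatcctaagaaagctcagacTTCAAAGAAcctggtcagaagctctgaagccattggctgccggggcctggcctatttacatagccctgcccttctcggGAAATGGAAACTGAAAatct
Ifit1, chr19:34640739-34640888, plus strand: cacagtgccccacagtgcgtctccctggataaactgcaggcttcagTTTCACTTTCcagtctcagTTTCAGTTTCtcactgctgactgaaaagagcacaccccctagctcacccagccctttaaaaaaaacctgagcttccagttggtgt
Cmpk2, chr12:26469065-26469214, plus strand: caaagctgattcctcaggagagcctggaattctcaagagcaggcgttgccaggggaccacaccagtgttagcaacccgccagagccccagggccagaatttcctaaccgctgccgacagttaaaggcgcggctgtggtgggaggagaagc
Bst2, chr8:71537473-71537622, minus strand: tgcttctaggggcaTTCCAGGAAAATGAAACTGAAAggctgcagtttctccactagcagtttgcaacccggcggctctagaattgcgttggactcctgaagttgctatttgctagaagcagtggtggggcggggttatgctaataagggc
Isg15 carries 3 overlapping ISRE matches in a row, the first starting 78 bases before the start of the gene. Oas1a carries 2 overlapping ISRE matches close to its start, from 20 bases before it, and a GAS match from 98 bases before it. Ifit1 has 2 ISRE matches on the opposite strand, from 104 and 85 bases before its start. In Bst2 the GAS match and 2 ISRE matches overlap, from 136 bases before the start. Cmpk2 has neither motif anywhere in its window, which says only that these letters are not there. A match is a run of letters and not a bound site.

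Almost the whole set was lower after stimulation through the T cell receptor in both genotypes. Whether unstimulated cells were held in culture is not given, and the part of 13 h in culture was not tested. In WT cells 37 of 42 members were lower in stimulated than in unstimulated cells and 0 were higher, where 30.2% of all genes were called lower and 31.7% higher. The members' median difference was -2.85, against -0.03 over all genes. In CKO cells 37 were lower and 0 higher as well, against 30.4% and 29.7% of all genes, with a median of -2.10 against -0.08. Summarised as the median of the 42 members on each array, levels relative to the WT unstimulated mean were 0.01 ± 0.27 (SD, n = 4) in WT unstimulated and -0.26 ± 0.16 in CKO unstimulated arrays. They were -2.76 ± 0.23 in WT stimulated and -2.25 ± 0.38 in CKO stimulated arrays. Of the 42 members, 32 had their lowest group mean in WT stimulated cells, 8 in CKO stimulated cells and 2 in CKO Treg.

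The genes that fell furthest in WT cells came from several roles. Oas2, an oligoadenylate synthetase that makes the second messenger for RNase L, went from 1.62 ± 0.70 (SD, n = 4) to -5.51 ± 0.63, a difference of -7.12 ± 0.49 (SE), but only 1 of 4 stimulated arrays measured it above background. Cmpk2, a mitochondrial nucleotide kinase, was above background on no WT stimulated array and fell at least 34.5-fold, from -0.11 ± 0.28 to -5.71 ± 0.55. Here "at least" sets the brighter group against the dimmest signal still above background on the dim arrays. Ddx58, the RNA sensor RIG-I, fell 41.0-fold, from 3.79 ± 0.41 to -1.57 ± 0.57 (limma adjusted p = 2.94e-13). Rtp4, a negative regulator of the interferon response, fell 38.9-fold (difference -5.28 ± 0.38, limma adjusted p = 1.55e-10), and Oas1a, another synthetase, 38.5-fold (limma adjusted p = 5.76e-13). In none of these 5 genes did the 4 stimulated and 4 unstimulated WT arrays overlap.

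In CKO cells the steepest falls were those of Oas2 (difference -5.63 ± 0.49, from 0.76 ± 0.55 to -4.88 ± 0.67, with 2 of 4 stimulated arrays above background) and Ddx58 (-4.11 ± 0.25, 17.3-fold). They were followed by the dynamin-like GTPase Mx2 (-3.93 ± 0.43, 15.2-fold), Samd9l, a restrictor of translation (-3.47 ± 0.24, 11.1-fold), and Cmpk2 (-3.46 ± 0.30, 11.0-fold, with limma adjusted p = 4.02e-09). Every one of these 5 was separated between the 4 stimulated and 4 unstimulated CKO arrays.

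A few members did not follow. In WT cells the 5 without a call were the tetherin gene Bst2 (difference -0.13), the guanylate-binding proteins Gbp2 (-0.48) and Gbp3 (-0.52), the ubiquitin ligase Trim25 (-0.22) and the endosomal restriction factor Ifitm3 (-0.95), with limma adjusted p from 0.0893 to 0.51. In CKO cells the 5 were Bst2 (-0.17), Gbp2 (-0.16), Gbp3 (-0.41), Trim25 (0.06) and Ifi35 (-0.10), with limma adjusted p from 0.181 to 0.817. These exceptions were picked out after their values were seen. A second probe for Trim25 gave 0.57 in WT, the opposite sign to the one used.

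Markers of some other cells fell on stimulation too. In WT, 8 of 8 B cell markers and 9 of 12 myeloid and dendritic markers were lower, against 30.2% of all genes. Their median differences were -2.95 and -2.59. Sums scaled as for the Treg markers above did not all fall. CD8 sums were 6.94 to 10.0 in WT unstimulated and 1.96 to 3.31 in WT stimulated arrays. Natural killer cell sums overlapped, at 3.15 to 8.95 and 2.35 to 6.09. Plasmacytoid dendritic sums went the other way, from 16.9 to 25.8 unstimulated and from 23.7 to 35.3 stimulated. In bulk RNA, fewer cells of a type and less RNA per cell cannot be told apart, and the part of these cells in the members' fall was not tested.

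**Figure D1:**
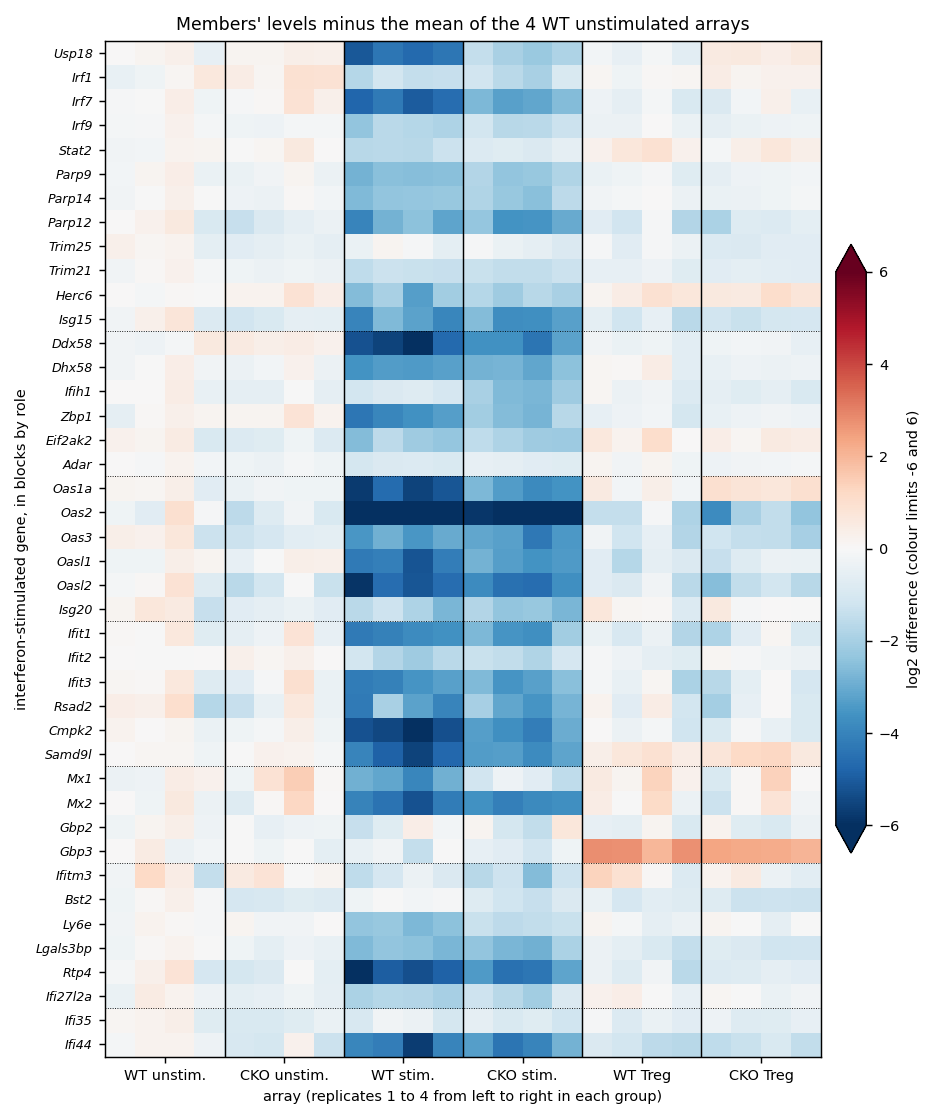
Level of each of the 42 members in each of the 24 arrays minus its mean over the 4 WT unstimulated arrays (log2, colour, limits -6 and 6), with genes in blocks by role. The 8 stimulated arrays are the low block, where the median of the members averages -2.76 in WT and -2.25 in CKO.

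**Figure D2:**
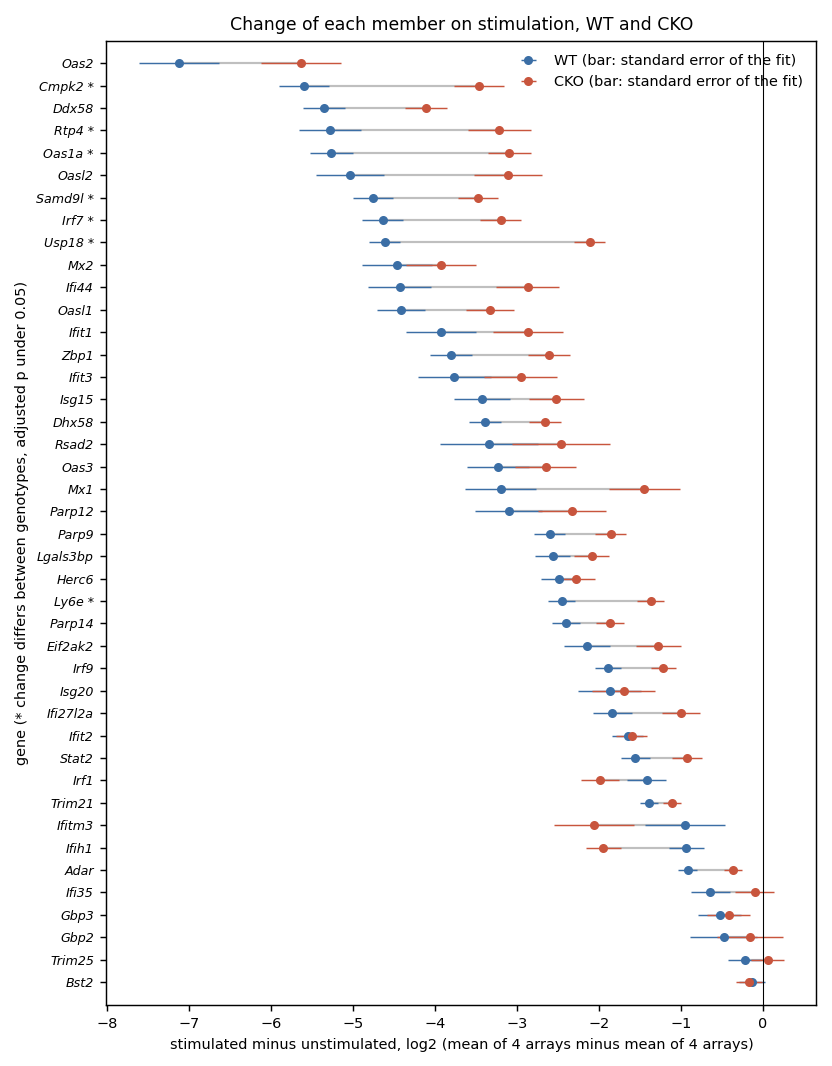
Stimulated minus unstimulated difference (log2) of each member in WT and CKO, each point the difference of 2 means of 4 arrays and each bar the standard error of the fit. Nearly all points lie below 0 in both genotypes, and the 7 genes marked with an asterisk fell less in CKO by the test of the difference itself.

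Within stimulated cells, part of the set was higher without Trim28. Of 42 members, 15 were called higher in CKO and 2 lower, against 11.6% and 12.4% of all genes, and the members' median difference was 0.51 against -0.05 over all genes. The WT stimulated arrays enter this comparison and the change on stimulation in WT, so they share samples, and each gene's values are given side by side without a test of their relation. Under quantile normalisation, where 60.9% of called genes were higher in place of 48.2%, the members split 14 higher and 2 lower with a median of 0.38. With normexp background correction, where 28.8% of called genes were higher and the median of all genes was 0.08, 6 members were higher and 2 lower, with a median of 0.32. Of the genes named below, Stat2, Oasl1, Cmpk2, Samd9l, Mx1 and Rtp4 lost their call under normexp, with limma adjusted p from 0.0734 to 0.558. Parp9, Irf9 and Dhx58 were not among the 6 members higher under normexp either. Oasl1 also lost it under quantile normalisation (0.81, adjusted p = 0.0845). The CKO and WT arrays did not overlap in 17 of the 42 members, a count that was not set against its share over all genes. Restricted to the 34 members above background on every array, 13 were higher and 2 lower, also without the share of genes equally bright. Neither count is read as a result about the members.

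Among the 12 measured regulators, 5 were higher and 0 lower. Usp18, the deconjugating enzyme of ISG15 and brake on Ifnar2, had levels of 0.92, 0.41, 0.10 and 0.48 in CKO stimulated replicates 1 to 4, and -2.73, -2.01, -2.34 and -2.02 in WT. The CKO arrays lay more than 2 units above every WT array. The difference was 2.75 ± 0.19 (SE), or 6.73-fold (limma adjusted p = 4.05e-09), the smallest adjusted p of the set. In unstimulated cells Usp18 levels of 2.37, 2.50, 2.63 and 1.86 in WT overlapped those of 2.50, 2.48, 2.71 and 2.66 in CKO. It fell 24.4-fold on stimulation in WT (limma adjusted p = 3.53e-14) and 4.32-fold in CKO (limma adjusted p = 5.46e-09).

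Irf7, the transcription factor that amplifies interferon production, read -1.64, -2.24, -2.09 and -1.55 in CKO stimulated arrays and -3.75, -3.20, -3.94 and -3.55 in WT. Every CKO array was again above every WT array, by 1.73 ± 0.25 on average (3.31-fold, limma adjusted p = 7.06e-05). Its unstimulated levels were 0.94, 1.00, 1.41 and 0.78 in WT and 0.98, 1.09, 1.88 and 1.32 in CKO, which overlap. Stat2 (0.81 ± 0.18, limma adjusted p = 0.00348), Parp9 (0.54 ± 0.19, adjusted p = 0.041), an ADP-ribosyltransferase, and Irf9 (0.47 ± 0.16, adjusted p = 0.035) were also higher. Irf9 was the only one of the 15 higher members whose groups overlapped.

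Isg15, the ubiquitin-like modifier that Usp18 removes, had no call between the stimulated groups. Its levels were -0.43, -1.55, -1.50 and -1.06 in CKO stimulated and -1.77, -0.44, -1.01 and -1.73 in WT stimulated arrays, interleaved, with a difference of 0.10 ± 0.34 (limma adjusted p = 0.85). It fell from unstimulated levels of 1.98, 2.50, 2.91 and 1.37 in WT and 1.04, 1.28, 1.64 and 1.59 in CKO. That is a fall of 10.7-fold in WT (limma adjusted p = 1.64e-08) and 5.73-fold in CKO (limma adjusted p = 1.66e-06). The other regulators without a call ranged from -0.25 for Trim25 to 0.62 for Herc6, a ligase for ISG15, whose adjusted p was 0.051. The 3 probes of Herc6 gave differences of 0.62, 0.70 and -0.62 and so disagree.

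The sensors split in direction. Ddx58 was 0.14, 0.17, -0.62 and 0.59 in CKO stimulated and -1.44, -1.77, -2.22 and -0.86 in WT stimulated arrays, without overlap, a difference of 1.64 ± 0.25 (3.12-fold, limma adjusted p = 0.000145). All 4 of its probes were higher in CKO, by 0.34 to 2.33, but those not used were dim. They read -5.45 to -7.81 in WT stimulated arrays, where Cmpk2 read -5.36 to -6.53 and was at background. The probe with 0.34 also read -6.08 to -7.39 in CKO stimulated arrays. Zbp1, a sensor of Z-form nucleic acid, stood at 3.00, 2.49, 2.30 and 3.40 in CKO against 0.72, 1.17, 1.44 and 1.75 in WT (1.53 ± 0.26, 2.89-fold, limma adjusted p = 0.000334). The lowest CKO array lay above the highest WT array here too. Dhx58, a cofactor of the RNA sensors, was 0.59 ± 0.19 higher (limma adjusted p = 0.0346), and the RNA-editing enzyme Adar (0.31 ± 0.11, adjusted p = 0.0525) and the kinase Eif2ak2 (0.23 ± 0.28, adjusted p = 0.577) had no call.

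Ifih1, the RNA sensor MDA5, went the other way. CKO stimulated arrays read -1.42, -2.13, -2.20 and -1.62, all below the WT levels of -0.58, -0.33, -0.26 and -0.47. The difference was -1.43 ± 0.21, 2.70-fold lower in CKO (limma adjusted p = 9.35e-05), and a second probe gave -1.17. On stimulation Ifih1 fell 1.91-fold in WT (limma adjusted p = 0.000663) and 3.85-fold in CKO (limma adjusted p = 1.06e-07), from overlapping unstimulated levels of 0.53, 0.53, 0.97 and 0.07 in WT and -0.03, -0.03, 0.52 and -0.03 in CKO.

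Of the 6 oligoadenylate synthetases and nucleases 2 were higher. Oas1a, whose promoter stretch above carries both motifs, was -0.91, -1.57, -2.04 and -1.82 in CKO stimulated arrays and -3.98, -2.83, -3.78 and -3.37 in WT. The groups were separate, with a difference of 1.90 ± 0.26 (3.74-fold, limma adjusted p = 3.73e-05). Unstimulated levels were 1.95, 1.91, 2.14 and 1.10 in WT and 1.40, 1.58, 1.54 and 1.51 in CKO. Oasl1, a relative without synthetase activity, was 1.13 ± 0.29 higher (2.18-fold, limma adjusted p = 0.0102). Oasl2 (0.92 ± 0.41, adjusted p = 0.109), Oas2 (0.63 ± 0.49), Oas3 (-0.31 ± 0.37) and the exonuclease Isg20 (-0.41 ± 0.39) had no call.

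In the IFIT and translation group 2 of 6 were higher, both outside the IFIT family. Cmpk2 read -3.42, -3.81, -4.24 and -3.08 in CKO stimulated arrays, all above background, and -5.36, -5.55, -6.53 and -5.40 in WT, none above it, which makes it at least 2.99-fold higher in CKO (difference 2.07 ± 0.30, limma adjusted p = 7.76e-05). A second probe gave 1.32, with still lower WT stimulated levels of -6.13 to -7.70. Samd9l stood at -1.58, -1.53, -2.01 and -1.39 in CKO and -2.19, -3.10, -3.79 and -2.94 in WT, a difference of 1.38 ± 0.24 (2.60-fold, limma adjusted p = 0.000539). Both genes separated the 2 genotypes. Ifit1, which blocks translation of foreign RNA and carries 2 ISRE matches, did not: its levels were -2.60, -3.48, -3.58 and -1.99 in CKO and -4.16, -4.00, -3.70 and -3.55 in WT. The difference was 0.94 ± 0.43 (limma adjusted p = 0.112), and CKO replicate 3 lay below WT replicate 4. It had fallen 15.2-fold on stimulation in WT (limma adjusted p = 6.87e-08) and 7.26-fold in CKO (limma adjusted p = 6.6e-06). Ifit2 (0.24 ± 0.19), Ifit3 (0.77 ± 0.44) and the viperin gene Rsad2 (0.48 ± 0.60) were likewise without a call, with adjusted p from 0.209 to 0.58.

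Mx1 was the only higher member of the 4 GTPases. Its levels were -5.17, -4.31, -4.67 and -5.56 in CKO stimulated arrays, 3 of them above background, and -6.90, -7.14, -7.90 and -6.88 in WT, none above background. That gives at least 1.23-fold higher in CKO (difference 2.28 ± 0.43, limma adjusted p = 0.00101), and a second probe gave 1.33. In unstimulated cells the second probe gave much the same CKO minus WT difference, 1.32, where the probe used gave 0.53. In unstimulated cells Mx1 stood at -4.39, -4.31, -3.58 and -3.76 in WT and -4.27, -3.13, -2.55 and -3.96 in CKO. Mx2 (0.66 ± 0.43), Gbp2 (0.06 ± 0.40) and Gbp3 (-0.12 ± 0.26) had no call, with adjusted p from 0.262 to 0.928.

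The 6 membrane and secreted effectors gave 2 higher and 1 lower. Ly6e, a surface protein that restricts viral entry, was 5.52, 5.32, 5.39 and 5.56 in CKO stimulated and 4.50, 4.60, 4.17 and 4.43 in WT stimulated arrays, tightly grouped and apart. The difference was 1.02 ± 0.16 (2.03-fold, limma adjusted p = 0.000207). Rtp4 read 0.07, -1.04, -0.87 and 0.28 in CKO and -2.54, -1.50, -1.83 and -1.41 in WT (1.43 ± 0.38, 2.69-fold, limma adjusted p = 0.0114). Its 4 CKO arrays were above the 4 WT arrays.

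Bst2, the tetherin gene that holds budding virus at the cell surface, was the member lower in CKO in both naive states. Stimulated CKO arrays were at 3.16, 2.73, 2.54 and 3.06 and stimulated WT arrays at 3.63, 3.88, 3.76 and 3.84, without overlap (difference -0.91 ± 0.16, 1.88-fold lower, limma adjusted p = 0.000515). Unstimulated CKO arrays were at 2.92, 2.97, 3.20 and 3.08 and WT arrays at 3.64, 3.96, 4.22 and 3.82, again without overlap (-0.87 ± 0.16, 1.82-fold lower, limma adjusted p = 0.00128). Bst2 was not called changed by stimulation in either genotype, as given above. Ifitm3 (-0.73 ± 0.49), the secreted lectin ligand Lgals3bp (0.09 ± 0.21) and Ifi27l2a (0.37 ± 0.24) had no call, nor did Ifi35 (-0.20 ± 0.24) or Ifi44 (0.80 ± 0.38) among the remainder.

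**Figure D3:**
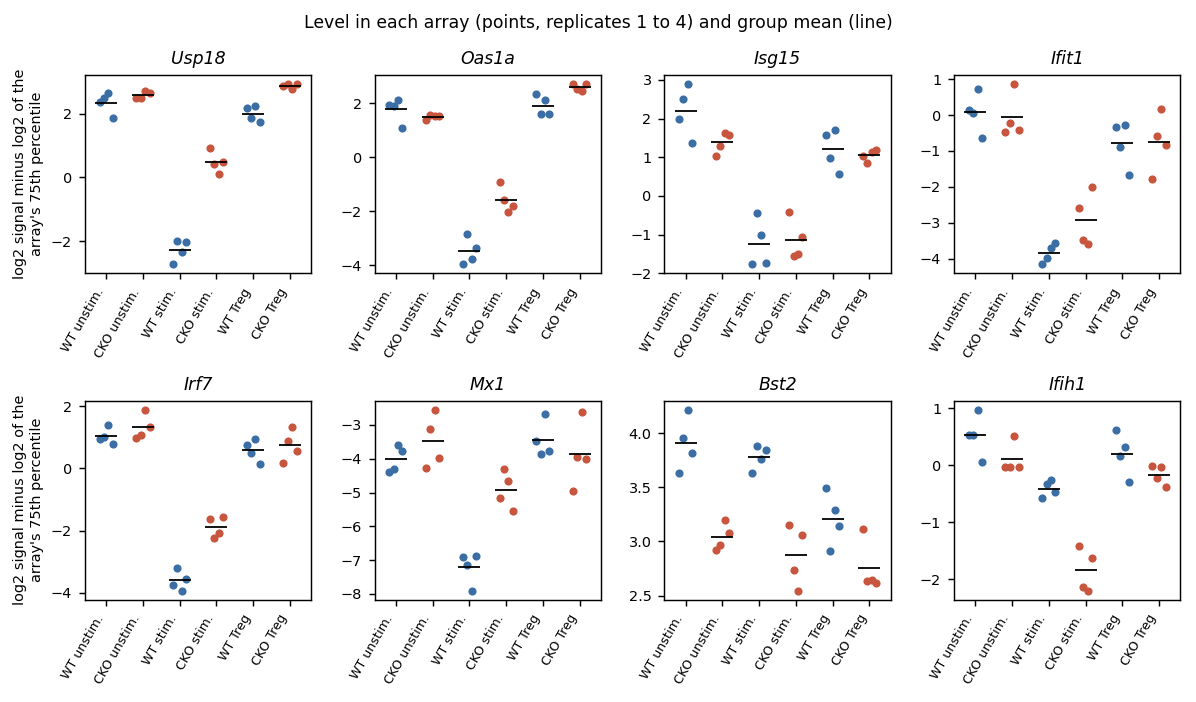
Level (log2 signal minus log2 of the array's 75th percentile) of Usp18, Oas1a, Isg15, Ifit1, Irf7, Mx1, Bst2 and Ifih1 in each array (points) with the group mean (line), for the 6 groups. Usp18 stands at 0.48 on average in CKO stimulated against -2.27 in WT stimulated arrays, the Isg15 arrays of those groups interleave, and Ifih1 and Bst2 are lower in CKO.

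Whether the change on stimulation itself differed between genotypes was tested as an interaction between genotype and stimulation. Of 42 members 7 fell less in CKO and 0 fell more, against 2.12% and 1.3% of all genes, and the members' median was 0.76 against -0.02. Usp18 had 2.50 ± 0.27 (limma adjusted p = 1.14e-05) and Oas1a 2.17 ± 0.37 (adjusted p = 0.00172). Cmpk2 had 2.14 ± 0.43 (limma adjusted p = 0.00663), a value that rests on signals at background in WT stimulated cells. Ly6e (1.08 ± 0.23, adjusted p = 0.0109), Irf7 (1.44 ± 0.35, adjusted p = 0.0253), Rtp4 (2.06 ± 0.54, adjusted p = 0.0354) and Samd9l (1.29 ± 0.35, adjusted p = 0.0413) also passed. Ifih1 had the opposite sign, -1.01 ± 0.30, with limma adjusted p = 0.0735. For Bst2 the value was -0.04 (limma adjusted p = 0.957), with differences between genotypes of -0.87 before and -0.91 after stimulation. The count changed with the model. It was 1 (Usp18) with normexp background correction, where 0.431% of all genes were called, and 4 under quantile normalisation (2.73%) and with no filter on dim probes (1.07%), where Irf7, Rtp4 and Samd9l lost their calls. It was 11 with slide as a fixed block (3.92%) and 19 with array weights (15.6%), each time with 1 member that fell more in CKO among them, against 3.42% of all genes in the fit reported here.

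The 4 slide pairs of stimulated cells showed how unevenly the rest of the set behaved. The median CKO minus WT difference of the 42 members was 0.95 in pair 1, 0.08 in pair 2, 0.21 in pair 3 and 0.71 in pair 4, with 36, 23, 25 and 33 members above 0. The 15 members called higher had medians of 1.58, 0.96, 1.60 and 1.45, and 14 of them were above 0 in every pair, the exception being Irf9 at -0.01 in pair 2. Usp18, for instance, was 3.65, 2.42, 2.43 and 2.50 higher in CKO. Because these 15 were chosen on the same arrays, their agreement over pairs is a description only.

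The 25 members without a call had medians of 0.62, -0.28, -0.31 and 0.50. Of these, 17 were above 0 in both pairs of 7-week mice (pairs 1 and 4) and 6 in both pairs of 6-week mice (pairs 2 and 3), where 12 were below 0 in both. Isg15 differed by 1.34, -1.11, -0.49 and 0.67 in the 4 pairs, Rsad2 by 2.24, -1.17, -0.33 and 1.19, and Gbp2 by 1.55, -0.30, -1.85 and 0.84. In each of these 3 genes CKO was above WT at 7 weeks and below it at 6 weeks. Irf1, the interferon gamma-induced activator, did the same with 0.58, -0.50, -0.52 and 0.50. Age and slide of the stimulated pairs cannot be told apart. In fits of the stimulated arrays of 1 age alone, made after the data were seen and with 2 arrays a genotype, 0 members were called by limma at either age. Those fits called 1 and 0 of all genes. Members at an unadjusted p under 0.05 numbered 19 at 6 weeks and 25 at 7 weeks, with medians of 0.27 and 0.88. The share of all genes at that unadjusted p is not given, so these counts are not read as a result about the members.

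**Figure D4:**
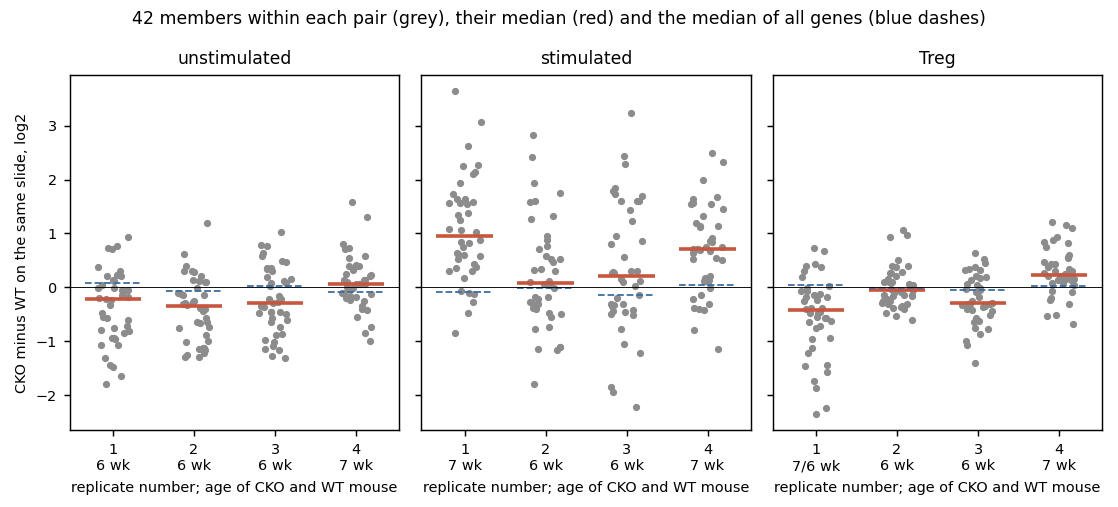
CKO minus WT difference (log2) of each of the 42 members within each pair of arrays on 1 slide (points), their median (red line) and the median of all genes (blue dashes), for unstimulated, stimulated and Treg pairs, with the age of the mice. The members' median in stimulated pairs is 0.95 and 0.71 at 7 weeks and 0.08 and 0.21 at 6 weeks.

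Markers of other cells differed between the stimulated groups as well. Of 8 B cell markers 3 were higher in CKO, with a median difference of 1.67, and their summed level ran from 1.73 to 7.01 times the 75th percentile in CKO and from 0.53 to 3.09 in WT stimulated arrays. By pair the sums were 5.26 in CKO and 0.80 in WT, 7.01 and 3.09, 4.49 and 0.53, and 1.73 and 1.22, beside members' medians of 0.95, 0.08, 0.21 and 0.71. None of the 12 tested myeloid and dendritic markers was called by limma, with 1 at an unadjusted p under 0.05, but their sum was 6.04 to 138 in CKO and 3.21 to 18.4 in WT arrays, with CKO replicate 2 at 138. Of the other lists, 1 of 2 CD8 and 1 of 5 natural killer cell markers were higher in CKO. The part of these cells in the members' difference was not tested. Of 8 plasmacytoid dendritic markers, Siglech was above background on no stimulated array of either genotype and the other 7 on at least 1 in each, with sums of 17.7 to 23.99 in CKO and 23.7 to 35.3 in WT. Bst2, itself a member, stands in that list, of which 7 were tested, 1 higher and 1 lower in CKO. The array's signal differed too: the 75th percentile of the first stimulated pair was 154 in WT and 372 in CKO, the lowest and highest of the naive arrays. Leaving out any single array kept the count of called members between 14 and 18.

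In unstimulated naive cells few members differed. No member was called higher and 2 were lower, against 7.83% and 10.9% of all genes, and 10 members had an unadjusted p under 0.05. The members' median was -0.22, against 0.01 over all genes, with 13 of 42 above 0. Besides Bst2, the lower one was Ifi35, a leucine-zipper protein, at 1.97, 2.00, 2.16 and 2.50 in CKO and 3.04, 3.13, 3.26 and 2.18 in WT (-0.74 ± 0.24, 1.67-fold lower, limma adjusted p = 0.0368). WT replicate 4 lay among the CKO arrays, and the other 3 WT arrays above them. The call of Ifi35 was lost in 11 alternatives, among them quantile normalisation (limma adjusted p = 0.0508), normexp (adjusted p = 0.145) and leaving out any of 6 single arrays.

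That WT array was low in other members too, though not in all. It had the lowest unstimulated WT level of Usp18, Oas1a, Isg15, Ifit1, Irf7 and Ifih1, but the highest of Ddx58 (4.39), Irf1 (6.75) and Ifit2 (1.66). It was the only array of its group from a 7-week mouse. Without it 10 members were called in place of 2, while 27.8% of all genes were called in place of 18.7%. In the slide pairs the median difference of the members was -0.23, -0.35 and -0.29 in pairs 1 to 3 and 0.06 in pair 4. A fit of the 6-week arrays alone, added after the data were seen, called 1 member higher and 9 lower and 26.4% of all genes. Array weights on all arrays called 1 higher and 16 lower and 39.9% of all genes. Isg15 (-0.80, limma adjusted p = 0.0978) and Oasl2 (-1.02, adjusted p = 0.0885) had no call, and nor had Usp18 (0.25, adjusted p = 0.37), Oas1a (-0.27, adjusted p = 0.495) or Mx1 (0.53, adjusted p = 0.405). Of the B cell markers 1 of 8 was higher in CKO here, with sums of 17.6 to 60.3 times the 75th percentile against 7.07 to 27.2 in WT. Of the natural killer cell markers 2 of 5 were higher, with sums of 6.35 to 22.8 against 3.15 to 8.95, and myeloid and dendritic sums were 47.1 to 320 against 32.0 to 154. Their part in these differences was not tested.

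In Treg the genotypes differed in 1 member, Usp18. CKO Treg read 2.86, 2.93, 2.76 and 2.94 and WT Treg 2.17, 1.87, 2.23 and 1.73, without overlap, a difference of 0.87 ± 0.19 (1.83-fold, limma adjusted p = 0.00721). With normexp it was 0.84 without a call (limma adjusted p = 0.147). Of all genes 2.47% were called higher and 1.84% lower in this comparison, and 0 members were lower. The members' median was -0.11, against 0.00, and 5 members had an unadjusted p under 0.05. Oas1a was 2.73, 2.55, 2.45 and 2.72 in CKO and 2.33, 1.59, 2.12 and 1.62 in WT, apart in all arrays but without a call (0.70 ± 0.26, limma adjusted p = 0.175).

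The other genes followed in every array showed no call in Treg. Bst2 was 3.12, 2.63, 2.65 and 2.61 in CKO and 3.49, 2.91, 3.29 and 3.14 in WT (-0.46, limma adjusted p = 0.131), with CKO replicate 1 inside the WT range. Isg15 at 1.04, 0.86, 1.15 and 1.18 in CKO overlapped WT at 1.59, 0.99, 1.71 and 0.57, and Ifit1 at -1.77, -0.59, 0.18 and -0.84 overlapped WT at -0.32, -0.88, -0.28 and -1.68. Irf7 (0.19, 0.89, 1.32 and 0.57 in CKO and 0.75, 0.49, 0.93 and 0.14 in WT) and Mx1 (-4.95, -3.94, -2.61 and -4.00 in CKO and -3.49, -3.86, -2.67 and -3.77 in WT) overlapped as well. So did Ifih1, at -0.02, -0.23, -0.03 and -0.38 in CKO and 0.63, 0.16, 0.32 and -0.30 in WT. Signals of the Treg arrays were dimmer, with 75th percentiles of 31.3 to 116 in CKO and 53.9 to 200.2 in WT.

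Against unstimulated naive cells, fewer members were called in Treg than on stimulation, and in both directions. In WT 3 members were higher and 8 lower in Treg, against 18.9% and 29.4% of all genes, with a median of -0.35 against -0.09. In CKO 4 were higher and 3 lower, against 11.6% and 16.7%, with a median of -0.27 against -0.07. The unstimulated arrays are shared with the comparisons above. The largest difference in both genotypes was that of Gbp3, at 4.34 ± 0.38 (SD, n = 4) in WT Treg against 1.77 ± 0.34 in naive cells (5.94-fold, limma adjusted p = 2.48e-07) and 3.99 ± 0.12 against 1.55 ± 0.26 in CKO (5.45-fold, limma adjusted p = 7.71e-07). No Treg array overlapped a naive array in either genotype.

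Samd9l was higher in Treg in both genotypes, by 0.60 ± 0.24 in WT (limma adjusted p = 0.0492) and 0.85 ± 0.24 in CKO (adjusted p = 0.0138). Stat2 was 0.53 higher in WT (limma adjusted p = 0.0197). In CKO, Oas1a was 1.11 ± 0.26 higher (limma adjusted p = 0.00375) and Eif2ak2, the kinase PKR, 1.02 ± 0.28 higher (adjusted p = 0.00974). Lower in WT Treg were Ifi44 (-1.30, limma adjusted p = 0.00919), Oas2 (-1.20, adjusted p = 0.0491), Isg15 (-0.98, adjusted p = 0.0224), Oasl1 (-0.95, adjusted p = 0.0123) and Oas3 (-0.92, adjusted p = 0.0492). Lgals3bp, Bst2 and Trim21 made up the 8. Second probes gave -0.25 for Ifi44 and 0.015 for Oas3. With the mean of a gene's kept probes both lost their call, at -0.78 (limma adjusted p = 0.121) and -0.45 (adjusted p = 0.36). In CKO Treg Oas2 (-1.53, limma adjusted p = 0.024), Lgals3bp (-0.60, adjusted p = 0.0403) and Trim21 (-0.34, adjusted p = 0.0258) were lower.

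Several of those calls changed with the background correction. With normexp 54.1% of the called genes were higher in WT Treg in place of 39.1%, the median of all genes moved from -0.09 to 0.15, and 3 members were higher and 21 lower. Samd9l was then 0.10 (limma adjusted p = 0.764) in WT and 0.37 (adjusted p = 0.284) in CKO, and Stat2 0.026 in WT (adjusted p = 0.935), so these calls were lost. The WT calls of Samd9l, Oas2, Oas3 and Isg15 were also lost in 7 or more alternatives each. In CKO Treg 54.6% in place of 40.9% were higher, and 3 members were higher and 9 lower. No member's genotype difference was called different between Treg and naive cells by limma, where 0.237% of all genes were called higher and 0.158% lower, and 2 members had an unadjusted p under 0.05.

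The pathway around the set was read from lists fixed with earlier results of these data known. Of 21 tested receptor and signalling genes 7 were higher and 0 lower in CKO stimulated cells, where 11.6% of all genes were higher and 12.4% lower, with a median of 0.14. Ifnar2, the receptor chain that Usp18 binds, was at 1.67 ± 0.16 (SD, n = 4) in CKO and 0.48 ± 0.31 in WT (1.19, 2.28-fold, limma adjusted p = 8.63e-06). Ifnar1 was 0.41 higher (adjusted p = 0.0485) and Ifngr1, a chain of the interferon gamma receptor, 0.86 higher (adjusted p = 0.0032). The feedback inhibitors Socs3 (1.36, limma adjusted p = 0.00226) and Socs1 (0.96, adjusted p = 0.0108) were higher as well. In unstimulated cells 3 of the 21 were higher in CKO, Socs1 by 1.04 (limma adjusted p = 0.00931), Stat3 by 0.58 (adjusted p = 0.0382) and Ifnar2 by 0.50 (adjusted p = 0.0209). The upstream factor Irf3 (0.05, limma adjusted p = 0.815) had no call. On stimulation Ifnar2 fell by 1.62 in WT and by 0.93 in CKO.

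Of the interferon genes themselves 15 of 19 had a probe and 5 passed the filter, and none of these 5 was called by limma in stimulated or unstimulated cells, nor had an unadjusted p under 0.05 there. Ifng differed by -0.33 in stimulated cells (limma adjusted p = 0.573) and by -1.64 in Treg (adjusted p = 0.0184). Ifnb1 has a probe that did not pass the filter. Among 18 tested sensors and adaptors 1 was higher and 3 lower in CKO stimulated cells, near the shares of all genes (11.6% and 12.4%): the DNA sensor gene Mb21d1 (-1.04, limma adjusted p = 0.000107), Rnaseh2b (-0.79, adjusted p = 0.00667) and the adaptor Myd88 (-0.40, adjusted p = 0.0182) were lower and Ifi204 (0.43, adjusted p = 0.0373) higher. Mavs, the adaptor of Ddx58 and Ifih1, differed by 0.17 (limma adjusted p = 0.441).

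A list of 46 further interferon-stimulated genes gave 12 higher and 2 lower in CKO stimulated cells, against the same 11.6% and 12.4% of all genes, with a median of 0.16. Uba7, the activating enzyme for ISG15, was 1.51 higher (limma adjusted p = 6.1e-06), Oas1b 1.55 (adjusted p = 0.000792), Trim12a 1.00 (adjusted p = 9.21e-05) and the death ligand gene Tnfsf10 0.93 (adjusted p = 0.000718). On stimulation 38 of the 46 fell and 5 rose in WT (30.2% and 31.7% of all genes), and 33 fell and 4 rose in CKO (30.4% and 29.7%). In unstimulated cells 0 were higher and 9 lower (7.83% and 10.9% of all genes), led by Slfn2 (-1.36, limma adjusted p = 2.3e-05). Of 30 interferon gamma targets and antigen presentation genes 6 were higher and 0 lower in CKO stimulated cells (11.6% and 12.4% of all genes), among them Gbp8 (1.34, limma adjusted p = 5.47e-05) and Gbp9 (0.72, adjusted p = 0.0284). Socs1 stands in this list and in that of the signalling genes.

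The members also varied together within groups. After each group's mean was taken out, the median correlation over the 861 pairs of members was 0.38 across 24 arrays, and 38.1% of pairs were above 0.5. Such values share each array's scaling and labelling, and the same measure was not taken over all genes. Rtp4 (0.93), Parp9 (0.89), Oasl2 (0.88) and Ifih1 (0.87) followed the median of the other members most closely from array to array. Ly6e (0.09), Gbp3 (0.10), Ddx58 (0.19) and Mx1 (0.20) followed it least. Ifih1, lower in CKO when most called members were higher, moved with the set inside groups, while Ly6e and Ddx58, higher in CKO, had the low values given above. Of the 15 members higher in CKO stimulated cells 8 have a promoter window, and 3 of these hold the ISRE letters (37.5%). So do 12 of the 25 other members with a window (48.0%), which include Dtx3l and Xaf1 without a probe.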

How the data were processed

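RNA of the 24 samples was labelled with Cy3 and hybridised to one-colour Agilent arrays, per the labels' protocols. The deposited scanner files hold intensity values that Agilent Feature Extraction 9.5 had background-subtracted, per the file headers, which record no step between arrays. The authors' deposited value table holds normalised signal values of the same arrays with the same distribution in every column (median 13.5), which served as an alternative after being set against each array's scanner values. Its scale and processing are not given in the sources used here. From the values it is on a linear scale, so log2 was taken before use. The differences were then close to those of quantile normalisation, for instance -0.676 under both for Ifi35 in unstimulated CKO against WT cells.

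Processed intensities were taken to log2 and each array's 75th percentile was subtracted. Controls and spots marked as outliers were dropped, and repeated spots averaged. The filter on dim probes asked for 3 arrays above background in some group, and left 25198 of 41174 probes. A gene took its brightest kept probe, and 16489 genes were tested. Array symbols were updated through RefSeq by accession (22944 probes), symbol (6664) or older symbol (3108), so Isgf3g is Irf9, Herc5 Herc6, D11Lgp2e Dhx58, Tyki Cmpk2, Gbp4 Gbp3 and Ifi27 Ifi27l2a. All 6 groups entered 1 limma fit (limma 3.58.1, R 4.3.3) with empirical Bayes and Benjamini-Hochberg adjustment over all genes. The median standard error of a CKO against WT difference was 0.22, and arrays of 1 group correlated at 0.961 to 0.993; the number of arrays limits the precision. Scripts were tested on simulated data. Promoter letters came from RefSeq windows (Python 3.11.15, pandas 2.3.3).

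The members and the lists around them were chosen with earlier results of these data known. Values of every array are given for 8 members (Usp18, Oas1a, Isg15, Ifit1, Irf7, Mx1, Bst2 and Ifih1) and for up to 8 called members per direction of each CKO against WT comparison with the smallest adjusted p. The comparisons of stimulation and Treg name up to 5 per direction with the largest difference, and each pathway list up to 4, besides a fixed set of receptors and adaptors. Alternatives changed normalisation, background correction, filter, probe choice, weights, slide, age, replicate number and the arrays used. 1 item of the pathway lists is not reported here.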

Additional observations from a re-analysis of the deposited data

Results flagged for a closer look

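For 8 of the 150 sets of 4 arrays examined for the genes followed array by array, 1 array stood far from the other 3 by Dixon's test, and chance alone marks about 1 in 20. Replicate 3 of the unstimulated CKO cells was the highest of its group for Ifih1 (0.52), Zbp1 (5.87) and Eif2ak2 (-0.89). Replicate 3 of the stimulated WT cells was the lowest of its group for Cmpk2 (-6.53), which was at background there, Ifi44 (-4.81) and Oasl1 (-4.54). Among Treg, CKO replicate 1 was the highest for Bst2 (3.12) and WT replicate 3 the lowest for Gbp3 (3.78).

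The change on stimulation differed between genotypes by the interaction test in 7 members, each of which fell less in CKO. The differences in log2 were 2.50 for Usp18, 2.17 for Oas1a, 2.14 for Cmpk2, 2.06 for Rtp4, 1.44 for Irf7, 1.29 for Samd9l and 1.08 for Ly6e. The value of Cmpk2 rests on signals at background in stimulated WT cells.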

How the results depend on the processing

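The fall on stimulation in both genotypes kept its direction and stayed within 1.5 times its count under all alternatives run. For stimulated CKO against WT cells, 17 members were called; normexp background correction called 8, the array weights 18, slide as a fixed block 18, and leaving out 1 array in turn 14 to 18. The arrays of 6-week or 7-week mice alone called 0 each. The share of all genes called also moved between alternatives, as given above for some. The counts here and below therefore do not measure the members alone. The set's median of 0.51 became 0.95 within pair 1 and 0.078 within pair 2.

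For unstimulated cells 2 members were called; normexp, no filter on dim probes and the compared arrays alone each called 1, array weights 17 and the 6-week arrays 10. Leaving out 1 array gave 1 to 10, the 10 without WT replicate 4, and 1 without WT replicate 2 or 3 or CKO replicate 1 or 2. The median of -0.22 became 0.064 within pair 4, the only 7-week pair. For Treg, 1 member was called; quantile normalisation and the authors' values called 2, normexp 0, and leaving out 1 array 1 to 2, the 2 without CKO Treg replicate 1. The median of -0.11 became -0.43 within pair 1, 0.22 within pair 4 and 0.24 in 7-week mice, which are 2 CKO arrays and 1 WT array.

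WT Treg against naive cells gave 11; normexp called 24, array weights 21 and the mean of a gene's probes 7. Leaving out 1 array gave 5 to 17: 5 without WT Treg replicate 2, 7 without WT Treg replicate 4 or unstimulated WT replicate 2 or 3, and 17 without unstimulated WT replicate 4. With normexp the Oas3 difference in that comparison turned from -0.92 to 0.015 (limma adjusted p = 0.972). CKO Treg against naive cells gave 7, and 12 with normexp; leaving out 1 array gave 4 to 7, the 4 without unstimulated CKO replicate 3. The interaction with stimulation gave 7; normexp called 1, quantile normalisation, the authors' values and no filter 4 each, slide as a block 11 and array weights 19. Leaving out 1 array gave 4 to 9, the 4 without WT stimulated replicate 3, unstimulated CKO replicate 1 or 2, or stimulated CKO replicate 1. The interaction with cell type gave 0, and 1 with array weights. The cause of these shifts was not tested.

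With a replicate block, 18 members were called in stimulated cells (16 higher and 2 lower), 3 in unstimulated cells, 1 in Treg, 11 for WT Treg and 8 for CKO Treg against naive cells, and 10 for the interaction with stimulation. Deviations of same-numbered arrays correlated from -0.21 to 0.17 in unstimulated cells, from -0.31 to 0.41 in stimulated cells and from 0.083 to 0.46 in Treg. Since not every pair was above 0.1, the numbers were not taken to pair the samples. Over the 87 calls of named genes, alternatives left 1631 results with the same direction and call, lost the call in 148 and turned 1 (Oas3, above). Low signal limits Mx1 and Cmpk2, above background on no stimulated WT array, and Oas2 and Parp12, above it on 1.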
